A study of Mus musculus with 12 samples.

Results

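Taurocholic acid (TCA) and glycocholic acid (GCA), which are cholic acid joined to taurine or to glycine, were treated as 1 class of compound, and mouse bone marrow neutrophils exposed to either of them were compared with vehicle cells. The class held 6 of the 12 samples of the series, 3 with TCA and 3 with GCA, against 3 samples with PBS. Cells of WT mice were cultured for 24 h, and both conjugates were given at 200 μM. A further 3 samples received Tβ-MCA, for which the labels give 10 μM and the study's methods 200 μM. Those samples entered the fit for its estimate of the variance and the correlations with Lnx1, and elsewhere their values are only given side by side. Stranded mRNA libraries were sequenced, and exonic reads were counted per gene. Of 29737 genes in the table, 16761 had enough reads to be tested. The labels describe a Ly6G+ sort with beads, whereas in the methods a density medium and an enrichment kit were used. Neither says whether the samples of a group came from separate mice, so the p-values measure the spread between these samples, which may be technical.

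Bile acids are made from cholesterol in the liver, and the hepatocyte enzyme encoded by Baat joins them to taurine or glycine before they enter the bile. Conjugated bile acids are charged and enter most cells only through transporters, but they can act from outside through receptors such as TGR5, encoded by Gpbar1, which raises cAMP, and S1PR2. Inside cells the nuclear receptor FXR, encoded by Nr1h4, is the best known bile acid sensor. Neutrophils are short-lived granulocytes that release granule proteins, oxidants and chemokines, and some of their states restrain T cells through arginase 1 and inducible nitric oxide synthase.

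The 9 libraries of PBS, TCA and GCA held between 33188881 and 41375925 counts on genes, and no pair within a group agreed within sampling noise. In every library, more genes had a count of 2 (between 2136 and 2321) than a count of 1 (between 616 and 761), so both mates of a read pair may have been counted and the counts may not be independent reads. The summed level of 12 neutrophil markers was between 51300 and 63400 counts scaled to library size (CPM) with PBS, between 49400 and 60500 CPM with TCA and between 46900 and 58200 CPM with GCA. All 12 were tested, and none passed an unadjusted p of 0.05 in the class against PBS. GCA replicate 4 stood apart from the other conjugate samples in the direction of the Tβ-MCA samples. It held 120 counts of Map2k6, a kinase that activates p38, against between 14 and 26 in the other 5 conjugate samples, between 18 and 34 in the PBS samples and between 109 and 267 in the Tβ-MCA samples. Its counts of the monocyte chemokine receptor gene Ccr2 (868) and of Ly6g (410) were the lowest of the 6. Results are therefore given with and without this sample where it mattered. The samples numbered 3 stood apart from the other numbers in every group on the second principal component. In PBS, TCA and GCA their summed level of 8 eosinophil markers was between 243 and 276 CPM, against between 128 and 173 CPM in the other samples. For eosinophil markers this did not extend to Tβ-MCA, where the sample numbered 3 was at 86.1 CPM, between the other samples at 61.1 and 141 CPM. The summed level of 7 basophil and mast cell markers was between 61.7 and 70.8 CPM in the samples numbered 3 of all 4 groups. In the other samples it was between 32.4 and 41 CPM. The neutrophil marker sum was highest in number 3 of PBS, TCA and GCA, and that of T and NK cell markers was lowest in number 3 of each group. Values within number 3 and within the other numbers, as differences in log2 CPM, are given for the genes described in most detail.

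The results turn on the genes with the lowest p in the class against PBS, and the 250 bases before the start of the first 4 of them with an entry in the RefSeq promoter table (GRCm38.p6) are shown 5′ to 3′ on the strand of the gene, to let them be read beside the values that follow. Capitals mark matches, on either strand, to TGACG (the short site of cAMP response elements, of which the full element TGACGTCA holds an overlapping pair), TGATGCAA (the core of the amino acid response element), TGACNNNGC (the antioxidant response core), AGGTCA (a nuclear receptor core) or the inverted repeat of that core with a gap of 1 base, known as the IR1 element of FXR.
Slc7a11, chr3:50443614-50443863, minus strand: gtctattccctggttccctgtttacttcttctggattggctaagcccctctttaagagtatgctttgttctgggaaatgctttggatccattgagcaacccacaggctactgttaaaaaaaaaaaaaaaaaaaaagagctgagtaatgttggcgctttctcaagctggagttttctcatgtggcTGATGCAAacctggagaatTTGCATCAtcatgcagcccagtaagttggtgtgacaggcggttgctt
Saa3, chr7:46715677-46715926, minus strand: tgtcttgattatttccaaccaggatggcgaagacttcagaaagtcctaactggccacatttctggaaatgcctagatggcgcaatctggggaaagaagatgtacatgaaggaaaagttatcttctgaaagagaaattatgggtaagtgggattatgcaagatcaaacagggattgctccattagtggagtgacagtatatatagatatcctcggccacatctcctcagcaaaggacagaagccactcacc
Plk2, chr13:110394794-110395043, plus strand: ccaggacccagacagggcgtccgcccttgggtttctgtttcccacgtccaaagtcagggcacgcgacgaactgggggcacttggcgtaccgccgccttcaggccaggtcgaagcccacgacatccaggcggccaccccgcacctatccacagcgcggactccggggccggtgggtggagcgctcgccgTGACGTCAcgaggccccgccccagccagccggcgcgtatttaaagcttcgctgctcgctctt
Lnx1, chr5:74702904-74703153, minus strand: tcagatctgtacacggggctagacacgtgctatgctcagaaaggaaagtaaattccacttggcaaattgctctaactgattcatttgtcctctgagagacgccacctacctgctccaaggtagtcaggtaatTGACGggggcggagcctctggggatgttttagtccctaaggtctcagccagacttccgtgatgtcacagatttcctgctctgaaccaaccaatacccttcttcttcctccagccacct
The Slc7a11 window held TGATGCAA on both strands, from 66 to 59 and from 47 to 40 bases before the start. Of 32817 promoter windows of this length, 0.792% held that motif. The Plk2 window held TGACGTCA from 62 to 55 bases before the start, as did 1.55% of all windows. The Lnx1 window held only the short site TGACG, which was in 17.7% of all windows. None of these letters was in the Saa3 window. TGACNNNGC was in 10.2%, AGGTCA in 14.0% and the IR1 element in 0.00609% of all windows. A match describes the letters and is not a binding site.

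Compared with PBS, few genes differed with the pooled conjugates, and most of those that passed the study's cutoffs were near the limit of detection. With an unadjusted p under 0.05 and a fold change of at least 2, 58 genes (0.346% of the genes tested) differed, of which 26 were higher (0.155%) and 32 lower (0.191%). The 6 conjugate samples lay wholly above or below the PBS samples in CPM for 2.69% of all genes, above for 1.31% and below for 1.38%. With edgeR's quasi-likelihood test, 611 genes (3.65%) had an unadjusted p under 0.05, which is less than the 5% that this threshold lets pass where no gene differs. After Benjamini-Hochberg adjustment over all genes, edgeR called 0 genes. DESeq2 gave 550 genes at an unadjusted p under 0.05 and called 2 genes at an adjusted p under 0.05, Slc7a11 and Saa3, both lower. Without GCA replicate 4, the genes at the cutoffs numbered 81, and edgeR again called 0 genes after adjustment. Leaving out any 1 of the 9 samples gave between 81 and 115 genes at the cutoffs, with more genes passing the filter on low counts. The increase was over 1.5 times without PBS replicate 3 (102), 5 (90) or 6 (115), TCA replicate 3 (98), GCA replicate 3 (96) or GCA replicate 5 (93).

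**Figure D1:**
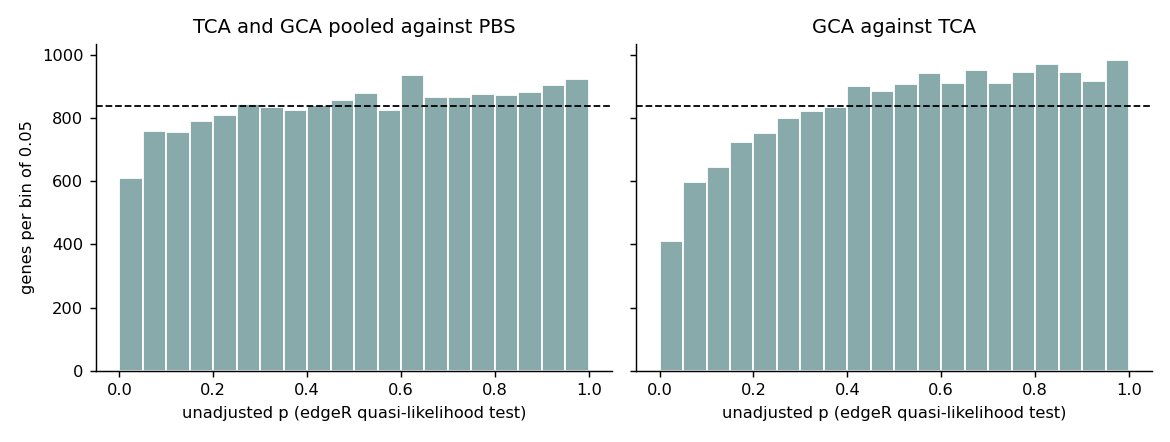
Unadjusted p-values of the 16761 genes tested, in bins of 0.05 (x axis), against the number of genes per bin (y axis); the dashed line is the mean over the bins. The first bin held 611 genes for the pooled conjugates against PBS (left) and 412 for GCA against TCA (right), the lowest bin in both plots.

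Of the 58 genes at the cutoffs, 57 had a mean level under 1 CPM, where 3538 genes were tested, and 1 was between 1 and 10 CPM. The filter asked for a minimum level in as many samples as the smallest group held. Genes under 1 CPM could thus enter the test through the group where they were high, which favors a difference there. None of the 5956 genes between 10 and 100 CPM or of the 2119 genes over 100 CPM passed the cutoffs. For 99.2% and 99.6% of the genes in those ranges, the 95% interval of the difference lay within a 2-fold change in either direction, and for genes between 1 and 10 CPM this share was 95.9%. Under 1 CPM the share was 33.5%, so that for most of these genes the interval reached beyond a 2-fold change. Over all genes the 95% interval was within a 2-fold change for 84.4%. By kind of gene, 44.8% of the genes at the cutoffs were protein coding, against 73.2% of all genes tested. Pseudogenes made up 19.0% of them and other non-coding genes 27.6%, against 7.74% and 15.5% of the genes tested. These shares were not computed among genes under 1 CPM alone, so the kind of gene cannot be told apart from its level here.

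Each conjugate was then compared with PBS on its own. With TCA, 78 genes (0.465%) were at the cutoffs, 38 higher (0.227%) and 40 lower (0.239%), and with GCA 89 genes (0.531%), 36 higher (0.215%) and 53 lower (0.316%). After adjustment edgeR called 0 genes in either comparison. The unadjusted threshold passed 546 genes (3.26%) with TCA and 591 (3.53%) with GCA, and DESeq2 called 1 gene with TCA (Saa3) and 0 with GCA. Both comparisons share the 3 PBS samples, so a chance deviation of PBS appears in both, and the overlap is a description of the class. 16 genes (0.0955%) were at the cutoffs in the same direction with TCA and with GCA, 9 higher (0.0537%) and 7 lower (0.0418%), which was 20.5% of the TCA genes and 18% of the GCA genes. None was at the cutoffs in opposite directions. Without GCA replicate 4, 13 genes met this definition, of which 9 were among the 16. Gm44141, D030047H15Rik, Zfp493, Sdk1, Mir7078, Igkv15-103 and Igkv6-23 no longer met it. Leaving out a PBS sample moved the number more, to 32 without PBS replicate 3 and to 37 without PBS replicate 6. The mean level of all 16 genes was under 1 CPM.

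Of all genes at the cutoffs, Lnx1 had the lowest p. It lies at chr5:74592447-74702912 on the minus strand and encodes a RING-type E3 ubiquitin ligase that binds NUMB, an inhibitor of Notch. The PBS samples held 3, 7 and 6 counts, the TCA samples 14, 21 and 17, and the GCA samples 19, 17 and 16. Every conjugate sample was above every PBS sample. Lnx1 passed the filter on low counts only through bile acid samples, so how it entered the test favored this lack of overlap. The level was 0.151 ± 0.0606 CPM with PBS (SD, n = 3) and 0.473 ± 0.0454 CPM with the conjugates (SD, n = 6). Lnx1 was 3.08-fold higher with the class, a log2 fold change of 1.63 with an SE of 0.378 and a 95% interval from 0.82 to 2.43 (edgeR's quasi-likelihood test, adjusted p = 1). The log2 fold change was 1.61 with TCA and 1.64 with GCA. GCA minus TCA was 0.03 on the log2 scale, with a 95% interval from -0.74 to 0.79. Without GCA replicate 4 the class value was 1.62. Within number 3 the difference in log2 CPM was 1.93, and within the other numbers it was 1.13. Over the alternatives that tested Lnx1 the log2 fold change stayed between 1.35, without PBS replicate 3, and 1.90, without PBS replicate 5. Exons of Lnx1 overlap those of Fip1l1 on the other strand. The log2 fold change of Fip1l1, an mRNA 3′ end processing factor, was 0.07. The strand setting of the counting is not given in the sources used here.

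**Figure D2:**
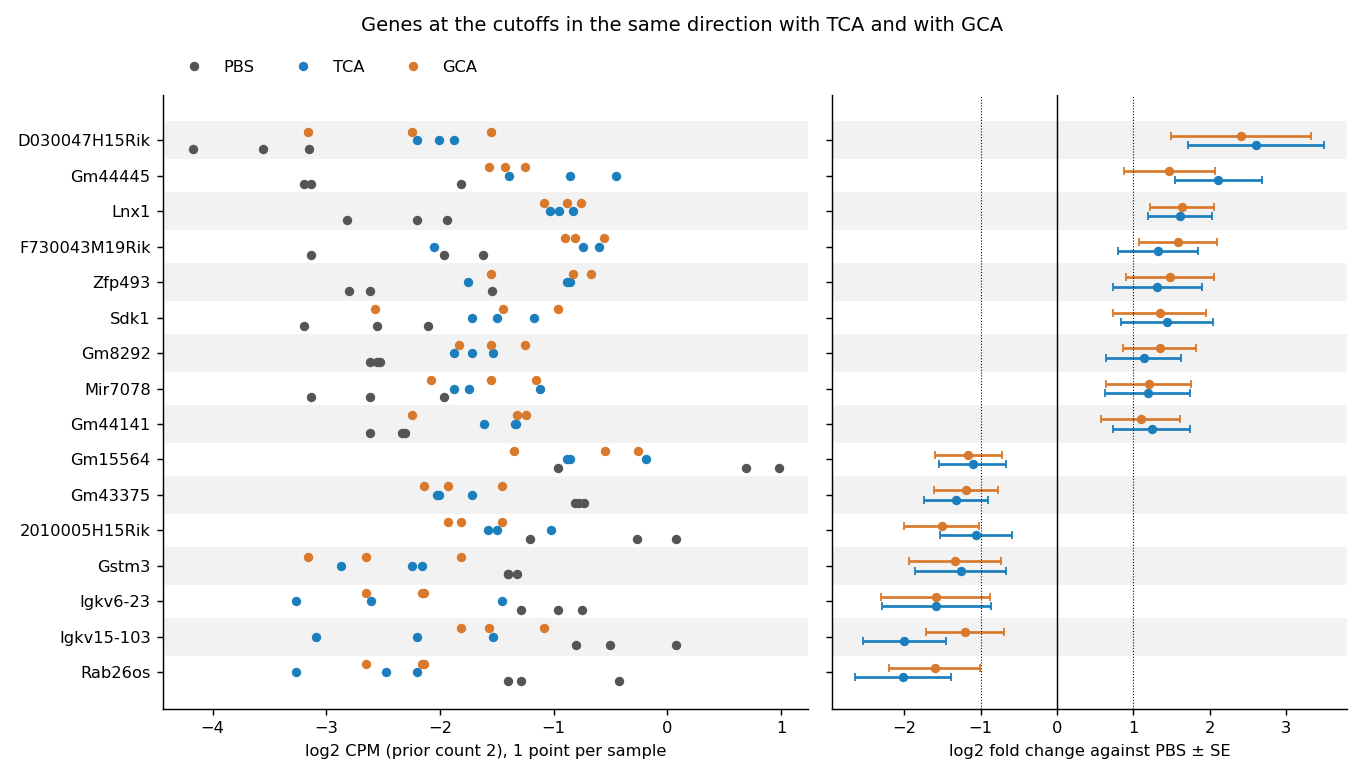
The 16 genes at the cutoffs in the same direction with TCA and with GCA. Left, log2 CPM with a prior count of 2 (x axis), 1 point per sample of PBS, TCA and GCA; right, log2 fold change of each conjugate against the same PBS samples with its SE, dotted lines at a 2-fold change. Lnx1, with 3 to 7 counts in PBS and 14 to 21 in the conjugate samples, has no overlap between PBS and the class, whereas for Sdk1 and Gm15564 the points of the groups meet.

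Of the other 8 genes higher with both conjugates, 5 are non-coding or pseudogenes with little known function. Gm44445 held 8, 2 and 2 counts with PBS, 16, 28 and 12 with TCA and 10, 11 and 14 with GCA, a log2 fold change of 1.79 (SE 0.531) for the class. The groups did not overlap, although the highest PBS sample was near the lowest GCA sample. The difference was 0.60 within number 3 and 2.03 within the other numbers. The processed pseudogene Gm8292 held 4 counts in each PBS sample and between 8 and 14 in the conjugate samples. Gm44141 held 4 or 5 counts with PBS and between 6 and 14 with the conjugates, and it too did not overlap. D030047H15Rik is annotated as antisense to Ttyh1, with which its exons overlap. It held 3 counts in all over the PBS samples and 39 over the conjugate samples, a ratio per count sequenced of 6.31. The exact 95% interval, from 2.01 to 31.9, covers counting error only. It treats the counts as independent reads and is too narrow if both mates were counted. GCA replicate 3 and PBS replicate 3 both held 2 counts, so the groups met. F730043M19Rik held 7, 2 and 10 counts with PBS and between 17 and 25 with the conjugates apart from TCA replicate 3, which held 6.

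Among the rest were 2 genes for proteins and 1 microRNA locus. Zfp493 encodes a zinc finger protein, and it held 10, 3 and 4 counts in the PBS samples, 16, 10 and 18 in the TCA samples and 18, 20 and 11 in the GCA samples. Sdk1 encodes a cell adhesion protein of the immunoglobulin superfamily and held between 2 and 6 counts with PBS and between 4 and 16 with the conjugates. Both groups of values overlapped for these genes. The Sdk1 difference lost its call without GCA replicate 4 (log2 fold change 1.16). Mir7078 lies within Cmip and held 7, 2 and 4 counts with PBS and between 7 and 14 with the conjugates, with overlap. These are reads of an mRNA library on the hairpin locus, not a measure of the mature microRNA. The log2 fold change of Cmip itself was -0.02.

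The 7 genes lower with both conjugates held 2 segments of the immunoglobulin kappa locus and Gstm3, a glutathione S-transferase of the mu class that couples glutathione to electrophiles. Gstm3 held 12, 11 and 12 counts with PBS, 5, 7 and 3 with TCA and 2, 8 and 4 with GCA. All conjugate samples were below PBS, with a log2 fold change of -1.30 (SE 0.498) and of -1.63 without GCA replicate 4. Gstm3 passed the filter on low counts only through the PBS samples, which favored this order. Without PBS replicate 3 the class value was -1.27 and no longer passed. Its abundant relative Gstm1 held between 5128 and 8605 counts with the conjugates and had a log2 fold change of -0.11. Gm43375 held 19, 18 and 19 counts with PBS and between 6 and 11 with the conjugates, without overlap. Rab26os is antisense to Rab26 and held 24, 12 and 12 counts with PBS and between 2 and 6 with the conjugates, also without overlap. For 2010005H15Rik and Gm15564 the groups overlapped, and for Gm15564 PBS replicate 3 held 16 counts against 53 and 71 in the other PBS samples. The difference of Gm15564 was -0.14 within number 3 and -1.30 within the other numbers.

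Segments of immunoglobulin genes were counted as a family after their values were seen. At the cutoffs 4 of 33 were lower, beside 0.191% of all genes and 31 of the 3538 genes with a mean level under 1 CPM. Igkv15-103 held 18, 34 and 24 counts with PBS, 2, 12 and 6 with TCA and 10, 8 and 16 with GCA. Igkv6-23 held 16, 12 and 20 counts with PBS and between 2 and 10 with the conjugates. Neither overlapped between the groups, and the log2 fold changes were -1.60 (SE 0.435) and -1.59 (SE 0.592) by edgeR's quasi-likelihood test. Reads of such segments can be split between near-identical copies, so the value of a single segment is uncertain. By name, 0 of the 33 were higher at the cutoffs, and by annotated kind instead of name 5 of 37 immunoglobulin segments were called. The median over the 33 log2 fold change was -0.29. The summed level of the segments was between 37.5 and 38.3 CPM with PBS and between 22.5 and 35 CPM with the conjugates. With Tβ-MCA it was 13.9, 15.7 and 23.9 CPM. Of 12 B lineage markers, 9 were tested, and 0 passed an unadjusted p of 0.05 in either direction. Their summed level was between 12.4 and 19.8 CPM with PBS, between 10.9 and 18.7 CPM with TCA and between 11.3 and 17.8 CPM with GCA, so these ranges overlapped. In bulk RNA, fewer cells of a type and less RNA per cell cannot be told apart, and the part of B lineage cells in the difference was not tested.

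Besides the genes above, the 10 higher genes with the lowest p whose samples did not overlap held Zfp969 and Zfp967, which encode zinc finger proteins, Cyp2r1, which encodes a vitamin D 25-hydroxylase, the pseudogenes Gm9431 and Gm5857, and E330037G11Rik. Zfp969 held 8, 8 and 10 counts with PBS and between 14 and 25 with the conjugates. Cyp2r1 held 4, 8 and 7 counts with PBS, 14, 11 and 12 with TCA and 15, 12 and 20 with GCA. In each case all 6 conjugate samples exceeded PBS, with log2 fold changes of 1.02 (SE 0.312) for Zfp969 and 1.07 (SE 0.406) for Cyp2r1. Over all 333 Zfp genes tested, 11 were higher and 2 lower at an unadjusted p under 0.05, against 1.74% and 1.91% of all genes, and the median log2 fold change was 0.04. The Zfp family was picked after the values were seen. E330037G11Rik no longer passed without GCA replicate 4.

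Among the lower genes with the lowest p, 3 more encode proteins of known type. Ces2h, a carboxylesterase, held 12, 21 and 17 counts with PBS and between 4 and 11 with the conjugates. Ctcfl, the paralog of the insulator protein CTCF that is known from the testis, held between 11 and 18 counts with PBS and between 5 and 10 with the conjugates. Tnfaip8l3, a phosphoinositide transfer protein, held 16, 14 and 18 counts with PBS and between 4 and 14 with the conjugates. The class samples of each were below PBS in CPM. The remaining names were the pseudogenes Gm5093 and Rpl32-ps, which can share reads with their parent genes. Rpl32-ps no longer passed without GCA replicate 4, and then the log2 fold changes of Ces2h and Tnfaip8l3 were -0.96 and -0.97, both under the 2-fold limit.

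Genes with many reads changed less and with smaller errors. The genes described next were chosen after their values were seen, among those over 1 CPM with a low p in the class or an adjusted p under 0.05 in an alternative. Slc7a11 encodes the cystine and glutamate exchanger xCT, which supplies cysteine for glutathione. Its level was 93.1, 73.4 and 65.7 CPM in the PBS samples, 59.8, 55.1 and 52.7 CPM with TCA and 57.2, 58.9 and 59.0 CPM with GCA. All 6 conjugate samples were below PBS. The log2 fold change was -0.44 (SE 0.0847, adjusted p = 1 by edgeR's quasi-likelihood test and 0.0392 by DESeq2). TCA alone gave -0.47 and GCA alone -0.41, and the difference GCA minus TCA was 0.06 with a 95% interval from -0.15 to 0.27. PBS replicate 3 was the highest sample, and without it the class value was -0.28. Within number 3 the difference was -0.67, and within the other numbers it was -0.30.

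Saa3 encodes serum amyloid A3, an acute phase protein of myeloid and epithelial cells. Its level was 131, 118 and 106 CPM with PBS, 51.7, 75 and 82.3 CPM with TCA and 90.9, 78.4 and 88.8 CPM with GCA. The groups did not overlap, and the log2 fold change was -0.61 (SE 0.123, adjusted p = 1 by edgeR's quasi-likelihood test and 0.0114 by DESeq2). TCA gave -0.77 and GCA -0.46. Plk2, a polo-like kinase, was at 15.6, 13.5 and 12.7 CPM with PBS and between 9.13 and 12.1 CPM with the conjugates, a log2 fold change of -0.42 (SE 0.0978). Ly6i, a GPI-anchored member of the Ly6 family, was at 4.70, 3.80 and 3.83 CPM with PBS, between 2.14 and 2.6 CPM with TCA and between 2.78 and 3.07 CPM with GCA (log2 fold change -0.62, SE 0.158). All conjugate samples were below PBS for both genes. Without GCA replicate 4 the values of Saa3, Plk2 and Ly6i were -0.58, -0.41 and -0.60. Within number 3 the differences were -0.93 for Saa3, -0.70 for Plk2 and -0.86 for Ly6i, and within the other numbers they were -0.47, -0.28 and -0.48.

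**Figure D3:**
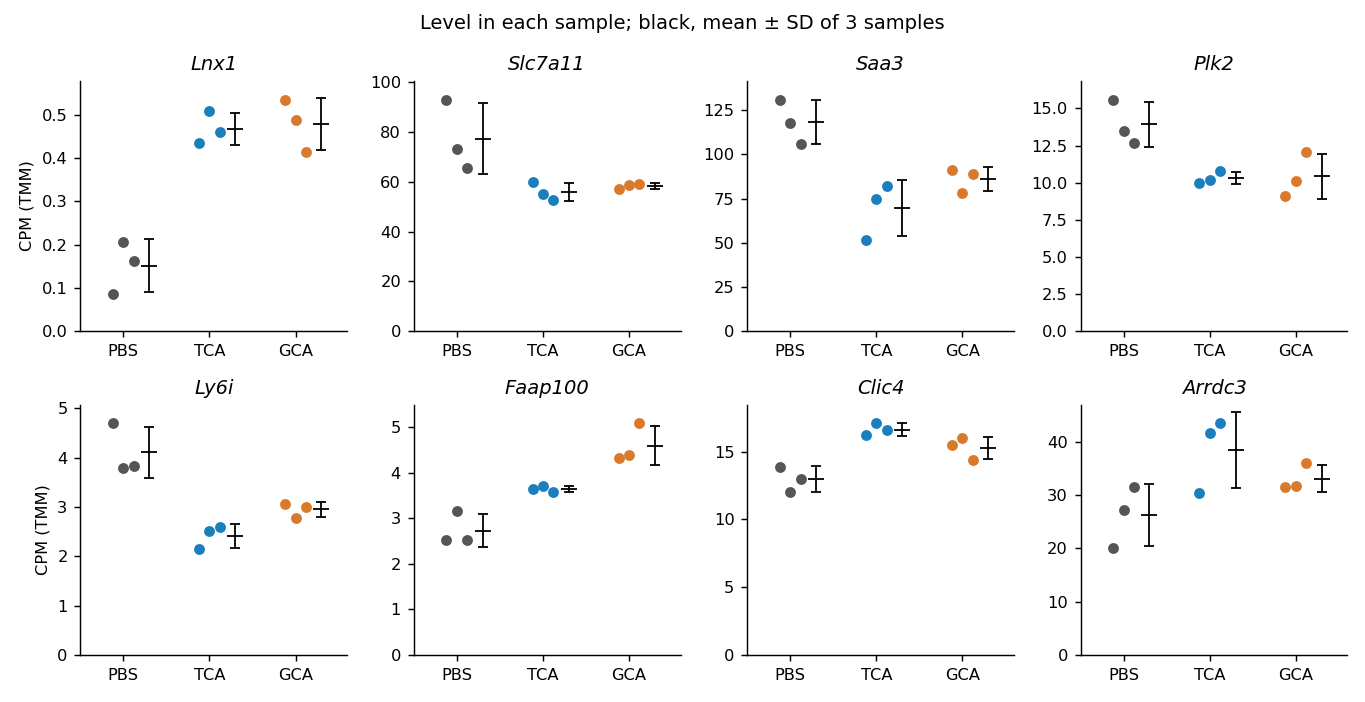
Level of 8 genes in each PBS, TCA and GCA sample, in TMM-normalized CPM from 0 (y axis of each plot has its own scale), with the mean and SD of 3 samples in black. Slc7a11, Saa3, Plk2 and Ly6i lie lower and Lnx1, Faap100 and Clic4 higher with both conjugates without overlap, whereas for Arrdc3 the PBS sample numbered 6, at 31.5 CPM, lies above the TCA sample numbered 3, at 30.4 CPM.

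In the higher direction, Faap100, a subunit of the Fanconi anemia core complex, was at 2.52, 3.15 and 2.51 CPM with PBS, between 3.57 and 3.70 CPM with TCA and between 4.31 and 5.08 CPM with GCA. Its log2 fold change was 0.58 (SE 0.137), and it was higher with GCA than with TCA by 0.34, at an unadjusted p under 0.05. Clic4, a chloride intracellular channel protein, was at 13.9, 12 and 13 CPM with PBS and between 14.4 and 17.1 CPM with the conjugates (log2 fold change 0.30, SE 0.0778). None of these passed after adjustment with edgeR's quasi-likelihood test or DESeq2. Arrdc3, an arrestin domain protein that acts in receptor trafficking, was at 20.1, 27.2 and 31.5 CPM with PBS, 30.4, 41.6 and 43.5 CPM with TCA and 31.5, 31.7 and 36.1 CPM with GCA. Its groups overlapped between samples of different numbers (log2 fold change 0.44, SE 0.153), and the difference was 0.62 within number 3 and 0.37 within the other numbers. For Faap100 these differences were 0.64 and 0.55, and for Clic4 0.18 and 0.36.

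The genes through which bile acids are known to act were then examined. Nr1h4 held 0 counts in 8 of the 9 samples of PBS, TCA and GCA and 2 counts in GCA replicate 5. Gpbar1 held 2, 2 and 4 counts with PBS, 0, 2 and 0 with TCA and 0 in the GCA samples. A count of 0 allows up to 3 counts if counts are independent reads, which was between 0.073 and 0.093 CPM per library. Neither receptor gene was detectable beyond a few reads, and neither was tested. S1pr2 was detected at 6.03 ± 0.729 CPM with PBS (SD, n = 3) and 6.28 ± 0.914 CPM with the conjugates (SD, n = 6), a log2 fold change of 0.05 with a 95% interval from -0.22 to 0.33. Its direction turned without PBS replicate 3 or TCA replicate 3. Of 9 bile acid receptor genes tested, 0 passed an unadjusted p of 0.05 for the class, beside 3.65% of all genes. Between the conjugates 2 did, beside 2.46% of all genes. Chrm3, a muscarinic acetylcholine receptor, was lower with GCA than with TCA by 0.35, and Nr1h3, the oxysterol sensor LXRα, was higher by 0.53. Nr1h3 shares exons with Gm13783 on the same strand. Of 8 genes of bile acid uptake, export and conjugation, 0 passed, and of 12 target genes of bile acid receptors only 1 had enough reads to be tested (log2 fold change -0.23).

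Over the 31 lists, 502 of 570 distinct genes were tested, of which 6 were higher and 12 lower at an unadjusted p under 0.05, and Lnx1 alone was at the cutoffs. Over all genes tested, 1.74% were higher and 1.91% lower at that threshold, so the share of list members was near that of all genes, and the members named from the lists are given as values. Of 33 genes of the cAMP and protein kinase A response, Pde3b, a cAMP phosphodiesterase, and Adcy9, an adenylate cyclase, were higher, by 0.24 (SE 0.0993) and 0.25 (SE 0.102) on the log2 scale, and 0 were lower. Neither passed without GCA replicate 4. Of 9 genes of sphingosine-1-phosphate signaling, 0 passed. Of 27 genes of the LNX and Notch list, Lnx1 and the coactivator gene Maml3 were higher (Maml3 0.24) and Dtx2, which encodes a Deltex E3 ligase, was lower (-0.28). Lnx2, the closest relative of Lnx1, had a log2 fold change of 0.06, and Numb, which encodes the protein bound by LNX1, one of -0.02. Lnx1 was known from earlier results when the class was chosen, so its call is no separate support for that list.

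Of 23 genes for immunosuppressive effectors, 0 passed an unadjusted p of 0.05. Arg1, which encodes arginase 1, held 7, 12 and 7 counts with PBS, 3, 5 and 18 with TCA and 3, 4 and 1 with GCA, and was left out by the filter. Nos2, which encodes inducible nitric oxide synthase, held 89, 60 and 57 counts with PBS, 60, 63 and 75 with TCA and 72, 39 and 92 with GCA, and its log2 fold change of -0.10 turned to 0.14 without PBS replicate 3 and to 0.03 without GCA replicate 4. Cxcl10, a chemokine for T cells, held 16, 6 and 12 counts with PBS and between 10 and 24 with the conjugates (0.52). The ranges of PBS and the class overlapped for all 3 genes. For Arg1, TCA replicate 5, at 0.487 CPM, was the only conjugate sample above the lowest PBS sample, at 0.189 CPM. The GCA samples, between 0.0259 and 0.115 CPM, were all below PBS. Without GCA replicate 4, Arg1 passed the filter, with log2 fold changes of -0.07 for TCA and -2.1 for GCA. It passed only through PBS replicate 5 and TCA replicate 5, its highest samples, which favors a lower value with GCA. The GCA value had an unadjusted p under 0.05 by edgeR's quasi-likelihood test, but no adjusted p under 0.05, and is given only as a description. Of 24 chemokine and cytokine genes, 2 were lower and 0 higher, and the median log2 fold change was -0.21 beside 0.00 over all genes. Cxcl1, a neutrophil attractant, was at 1.03, 1.18 and 0.809 CPM with PBS, 0.310, 0.628 and 1.14 CPM with TCA and 0.338, 0.516 and 0.415 CPM with GCA (-0.88, SE 0.336). TCA replicate 5 lay within the PBS range. Ccl3, a macrophage inflammatory protein, was lower by 0.24, also with overlap.

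In the p38 MAPK list 35 genes were tested, of which 2 were higher and 2 lower, beside 1.74% and 1.91% of all genes. Map3k6, an upstream kinase of the ASK family, and Tab3, an adaptor of the kinase TAK1, were higher by 0.22 and 0.21, and the phosphatase genes Dusp16 and Dusp5 were lower by 0.49 and 0.37. Tab3 no longer passed without GCA replicate 4. Map2k6 went with GCA replicate 4. Its class value of 0.29 (SE 0.631) became -0.32 without that sample. Of 22 NF-κB genes, Nfkbia, which encodes the inhibitor IκBα, was lower by 0.17, and 0 were higher. In the unfolded protein and integrated stress response list of 27 genes, Slc7a11 and Pdia4, a disulfide isomerase, were lower and 0 were higher, and Pdia4 did not pass without GCA replicate 4. Slc7a11 is also the 1 gene of 20 NRF2 antioxidant genes that passed. Of 23 apoptosis genes, Bax and the death receptor gene Fas were lower, by 0.23 and 0.21. Ldha, which encodes lactate dehydrogenase A, was lower by 0.18 (SE 0.054), the 1 gene of 31 glycolysis and hypoxia genes that passed. It was between 200 and 208 CPM with PBS and between 171 and 185 CPM with the conjugates, without overlap. None of these differences reached a 2-fold change, and edgeR's quasi-likelihood test gave no adjusted p under 0.05.

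No gene passed an unadjusted p of 0.05 among 39 interferon-stimulated genes, 24 genes of cholesterol synthesis and uptake, 12 liver X receptor target genes, 22 chemoattractant and adhesion receptors, 8 NADPH oxidase genes, 17 specific and gelatinase granule genes and 27 cell cycle genes. Of 10 azurophil granule genes, Cd63, a tetraspanin of the granule membrane, was lower by 0.14. No marker of monocytes and macrophages, eosinophils, basophils and mast cells, T and NK cells, dendritic cells, erythroid cells or stromal and progenitor cells passed. The summed level of 13 monocyte and macrophage markers was between 2180 and 2270 CPM with PBS, between 2060 and 2260 CPM with TCA and between 1820 and 2160 CPM with GCA, the lowest in GCA replicate 4.

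**Figure D4:**
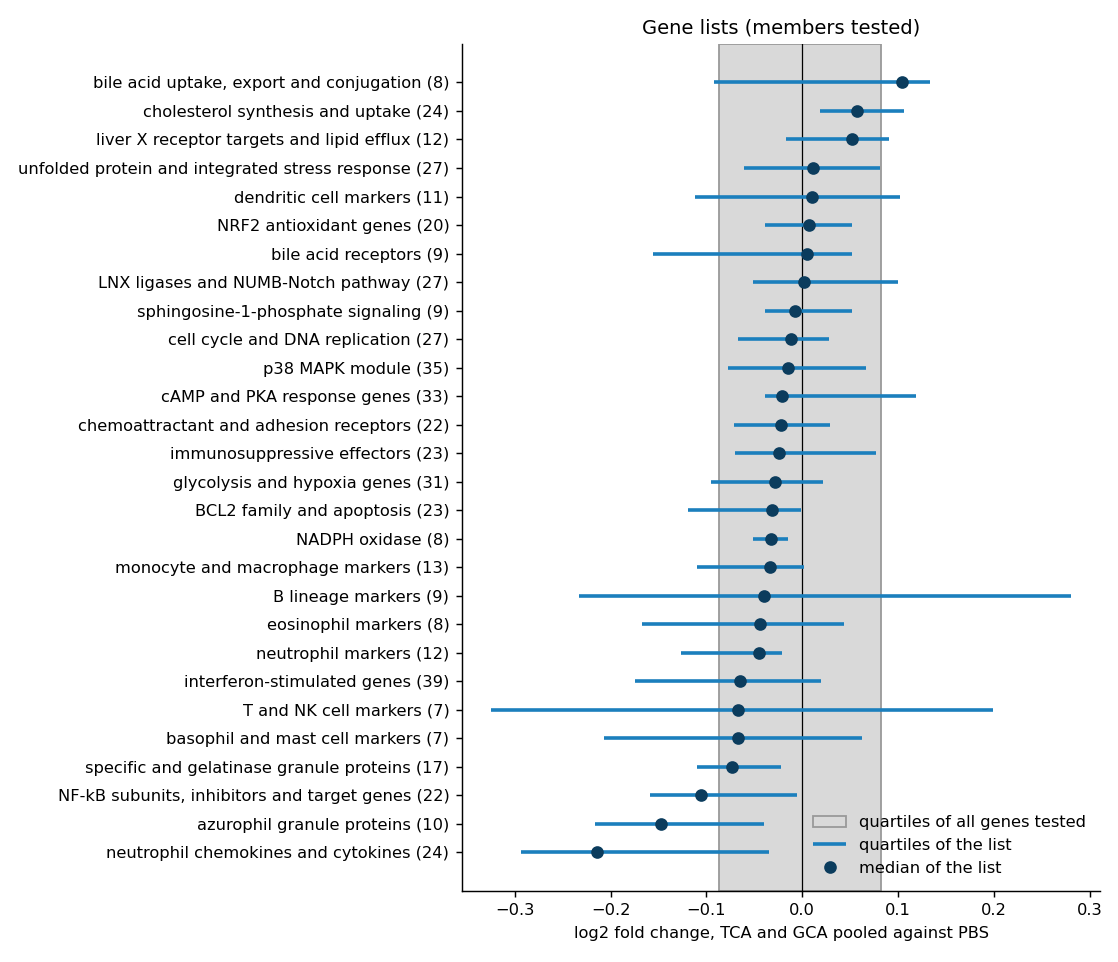
Median (point) and quartiles (line) of the log2 fold change of the pooled conjugates against PBS (x axis) for the 28 of 31 gene lists with at least 7 members tested, whose number stands in parentheses; the grey band spans the quartiles of all genes tested, -0.09 to 0.08. The chemokine and cytokine list lies lowest, with a median of -0.21.

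Ankle2, Clip2, Zfp967 and Cyp2r1 were among the genes that followed the level of Lnx1 most closely, with Pearson correlations of log2 CPM between 0.855 and 0.896 over the 12 samples, which share libraries and groups. Ankle2, a protein of the nuclear envelope, held between 1070 and 1236 counts with PBS and between 1181 and 1566 with the conjugates, and all 6 conjugate samples were higher in CPM (log2 fold change 0.22, SE 0.0563). Clip2, a microtubule linker protein, gave 0.24 (SE 0.0685), without overlap. Genes picked for following Lnx1, which separated PBS from the conjugates, tend to separate them too, so these values are a description.

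TCA and GCA were the only compounds whose dose and time matched in both the labels and the methods, and this 1 pair was compared directly. The conjugates differ in the amino acid on the side chain of cholic acid, taurine in TCA and glycine in GCA. At the cutoffs, 74 genes (0.442%) differed, 31 higher (0.185%) and 43 lower (0.257%) with GCA. The GCA samples lay wholly above or below the TCA samples for 8% of all genes, above for 3.81% and below for 4.19%. With edgeR's quasi-likelihood test 412 genes (2.46%) had an unadjusted p under 0.05 and 0 an adjusted one, and with DESeq2 371 and 0. The 95% interval of the difference lay within a 2-fold change for 80.4% of all genes and for 98.7% and 99.4% of those between 10 and 100 CPM and over 100 CPM. The other genes leave room for larger differences. 68 of the 74 genes had a mean level under 1 CPM. Without GCA replicate 4, 100 genes were at the cutoffs and 0 passed after adjustment. Without TCA replicate 3, GCA replicate 3 or GCA replicate 5, the numbers were 122, 118 and 112.

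Egr1, an immediate-early transcription factor, was the abundant gene among those that the direct comparison named. Its level was 74.7, 121 and 93.5 CPM with TCA and 39.0, 43.3 and 40.6 CPM with GCA. The PBS samples, at 33.9, 80.5 and 53.3 CPM, overlapped both. Egr1 was lower with GCA than with TCA by 1.23 on the log2 scale (SE 0.318, 95% interval from -1.96 to -0.51, adjusted p = 1 by edgeR's quasi-likelihood test), and by 1.27 without GCA replicate 4. Against PBS it was 0.79 (SE 0.314) with TCA and -0.45 (SE 0.316) with GCA. The others had few reads. Gm45094 held 20, 20 and 17 counts with TCA, 1, 4 and 6 with GCA and 11, 14 and 10 with PBS, so that PBS lay between the conjugates. 4930568A12Rik held 15, 20 and 12 counts with TCA and 23, 35 and 37 with GCA, and its difference was 0.92 without GCA replicate 4, under the 2-fold limit. A further 6 genes, the pseudogenes Gm5559, Gm7901, Gm26585 and Gm13771 and the non-coding genes Gm26516 and Gm37370, differed by between 1.16 and 2.00 on the log2 scale. Gm7901 no longer passed without GCA replicate 4.

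A list of 21 immediate-early genes, which cells switch on within minutes of a stimulus, was put together after the value of Egr1 was seen. Earlier results of these data were known as well. At an unadjusted p under 0.05, 5 were lower with GCA than with TCA and 0 higher. Over all genes these shares were 1.18% lower and 1.28% higher. Of the 21 differences 17 were negative, and the median difference over all genes was -0.000388. Egr1, for which the list was made, is in both counts, so they describe the list and are no separate support. The 5 were Fos, Egr1, Ier2, Dusp1 and Btg2, and the number was again 5 without GCA replicate 4. Fos, a subunit of AP-1, was at 262, 384 and 299 CPM with TCA and 150, 180 and 199 CPM with GCA, without overlap, a difference of -0.84 (SE 0.237). Ier2 was at 81.6, 67.7 and 64.4 CPM with TCA and 46.6, 51.0 and 59.3 CPM with GCA, a difference of -0.45. Dusp1, the phosphatase of p38 and JNK, differed by -0.43, and Btg2, an antiproliferative gene, by -0.21. The median over the list was -0.18 for GCA minus TCA. It was 0.08 for TCA and -0.14 for GCA against the PBS samples they share, and -0.04 for the class. None of the differences had an adjusted p under 0.05.

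**Figure D5:**
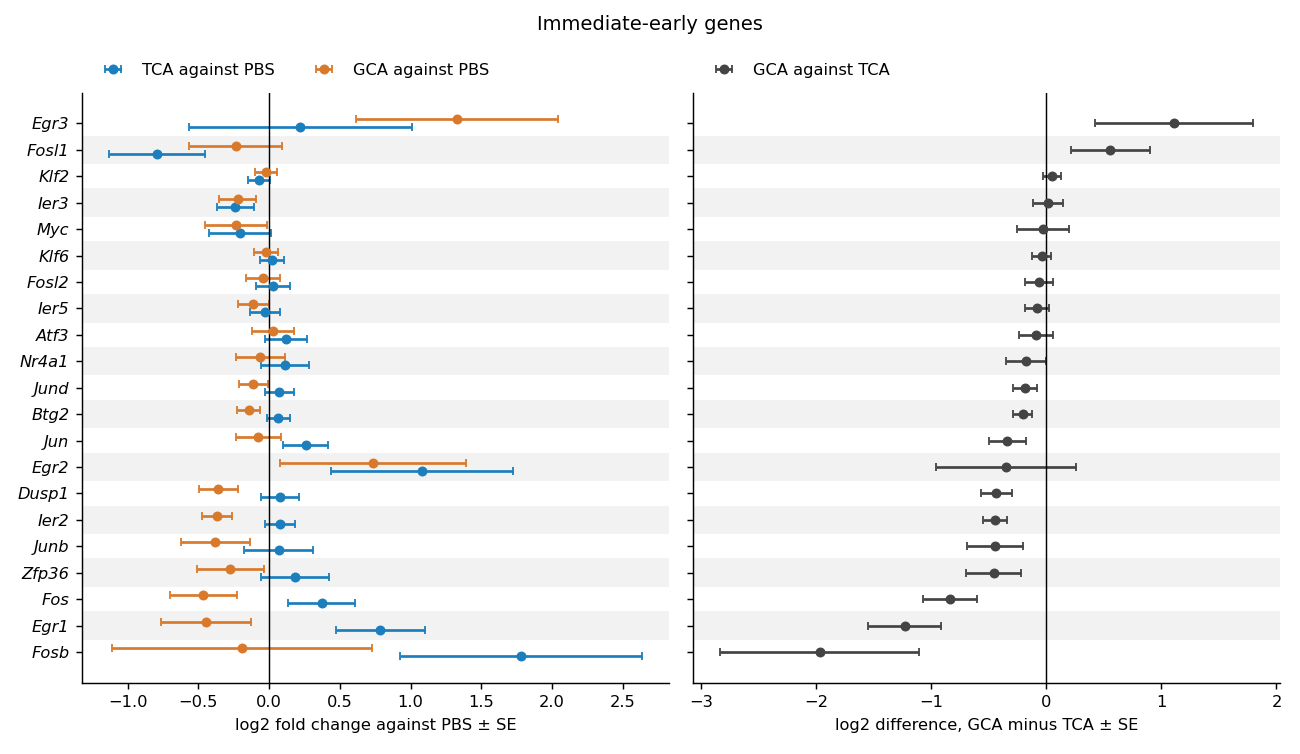
Log2 fold changes of 21 immediate-early genes with their SE for TCA and for GCA against the same PBS samples (left) and log2 difference of GCA minus TCA (right), ordered by the latter. The differences of Egr1 (-1.23) and Fos (-0.84) lie below 0 by more than 3 SE, whereas the PBS comparisons of these genes lie on either side of 0.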

How the data were processed

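Stranded mRNA libraries of bone marrow neutrophils of WT mice were analysed, 3 each with PBS, TCA, GCA and Tβ-MCA. The authors deposited raw read counts per gene beside RPKM values in 1 table. The submitters' processing notes name Trimmomatic 0.36, STAR 2.5.3a and featureCounts of Subread 1.5.1 with GRCm38/mm10, and the study's methods describe counts of reads on exons. The strand setting, the counting of mates and any removal of duplicates are not given in the sources used here. No column belonged to other samples.

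Counts were tested with edgeR 4.0.16 (R 4.3.3): TMM normalization, genes kept by filterByExpr, and the quasi-likelihood test with robust dispersions on all 12 samples in 4 groups, which share 1 estimate of the spread. The class was the mean of TCA and GCA minus PBS. TCA and GCA were also each compared with PBS, and GCA with TCA. The cutoffs were those of the study, an unadjusted p under 0.05 and a fold change of at least 2, and Benjamini-Hochberg adjusted values over all genes were computed beside them. CPM used TMM library sizes. Genes alike with both conjugates were at the cutoffs in 1 direction with each. Intervals of log2 fold changes used the SE of the quasi-likelihood test, which includes the spread between samples. Floors were 3 counts, between 0.073 and 0.093 CPM over the PBS, TCA and GCA libraries. The floors and the exact interval of the count ratio cover counting error only. They treat counts as independent molecules, which PCR copies are not.

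The text names the 10 genes per direction with the lowest p at the cutoffs without overlap between PBS and the class, all alike genes, up to 5 per direction for GCA against TCA, list members at the cutoffs, the defining genes Gpbar1, Nr1h4, S1pr2, Arg1, Nos2, Cxcl10, Map2k6, Ly6g and Ccr2, and the 5 genes most like Lnx1, of which some are not reported here. Others were chosen after their values were seen. The members and lists were chosen with earlier results of these data known. Alternatives were DESeq2 1.42.0, RLE or total-count scaling, no filter or at least 10 counts in every sample, limma 3.58.1 on log2(RPKM + 1) of genes with an RPKM of at least 0.5, the 9 samples of PBS, TCA and GCA alone, TCA and GCA as 1 group, the replicate number as a block, and each sample left out. A term for the samples numbered 3, the 9 samples with the block or without GCA replicate 4, and Tβ-MCA replicate 5 left out were added after seeing the data. Overlaps and kinds of gene came from GENCODE vM21. Scripts were tested on simulated data. Promoters were read from the RefSeq table of GRCm38.p6, which held 7 of the 16 alike genes.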

Additional observations from a re-analysis of the deposited data

Results flagged for a closer look

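Dixon's 95% limit was applied to 52 groups of 6 conjugate samples, 1 per gene, out of the 16761 genes tested. In 6 groups a sample lay farther from the others than the limit allows, where chance gives about 5%. Genes chosen for their values were among the 52, so that rate is not a matched background. GCA replicate 4 was the distant sample for Map2k6 (3.44 CPM against between 0.338 and 0.676 CPM) and Ccr2 (24.9 CPM against between 38.5 and 46.3 CPM). TCA replicate 3 was the distant sample for F730043M19Rik (0.186 CPM against between 0.479 and 0.622 CPM), Saa3 (51.7 CPM against between 75 and 90.9 CPM) and RP23-392I13.15 (19.4 CPM against between 11.4 and 13.5 CPM), a gene that was lower in the class by 0.48 on the log2 scale. GCA replicate 5 was the distant sample for Gm44141 (0.156 CPM against between 0.271 and 0.366 CPM).

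For Gm45094 and 4930568A12Rik, the samples of TCA and of GCA lay on opposite sides of PBS, although the TCA difference from PBS passed an unadjusted p of 0.05 for neither gene. The difference GCA minus TCA was -2.33 for Gm45094 and 1.03 for 4930568A12Rik on the log2 scale, both at an unadjusted p under 0.05, and edgeR's quasi-likelihood test gave an adjusted p of 1 for both.

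The Tβ-MCA samples lay outside these comparisons, and their dose differs between the labels and the methods. For 7 of the 9 genes higher with both conjugates, every Tβ-MCA sample also lay above every PBS sample, with values given side by side. The Tβ-MCA mean was 0.429 CPM for Lnx1 (PBS between 0.0861 and 0.206 CPM), 0.624 CPM for F730043M19Rik (PBS between 0.0589 and 0.270 CPM), 0.337 CPM for D030047H15Rik (PBS between 0 and 0.0574 CPM) and 0.243 CPM for Gm8292 (PBS between 0.108 and 0.118 CPM). It was 0.239 CPM for Sdk1 (PBS between 0.0539 and 0.177 CPM), 0.313 CPM for Gm44141 (PBS between 0.108 and 0.147 CPM) and 0.271 CPM for Mir7078 (PBS between 0.0589 and 0.201 CPM). For the genes lower with both conjugates, every Tβ-MCA sample lay below every PBS sample, except for Rab26os and Gm15564. Among the more abundant genes, Tβ-MCA was between 70.6 and 85.4 CPM for Saa3 (PBS between 106 and 131 CPM). It was between 10.3 and 11.3 CPM for Plk2 (PBS between 12.7 and 15.6 CPM). Ly6i also lay below PBS, and Faap100 and Clic4 above it, in every Tβ-MCA sample. Slc7a11 and Arrdc3 overlapped with PBS. The Tβ-MCA samples share the PBS controls with the conjugates.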

How the results depend on the processing

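Nearly all genes at the cutoffs had few reads, so the filter on low counts moved the numbers most. The 58 genes of the class became 367 without a filter (33.2% of them higher, against 44.8%), 2 with at least 10 counts in every sample and 1 with limma on log2(RPKM + 1). The 78 genes of TCA became 287 and 8, the 89 of GCA 308 and 7, the 74 of GCA against TCA 261 and 7, the 16 alike genes 63 and 1, and the 1 list member 5 and 0 without a filter and with at least 10 counts, and 0 with limma. With the fold change taken beside an adjusted p, all these comparisons and the alike genes gave 0. Genes at an adjusted p under 0.05 without a filter were 34 for the class, 37 for TCA, 36 for GCA and 42 for GCA against TCA, and DESeq2 gave 2 for the class and 1 for TCA. The causes were not tested beyond the number of genes tested.

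The samples share only replicate numbers. Same-numbered samples of different groups correlated in their deviations with r between 0.31 and 0.33 for number 3, 0.067 for number 4 and between 0.13 and 0.15 for number 5, against a mean of -0.07 over pairs with different numbers. That mean is lowered by pairs of number 3 with another number (between -0.23 and -0.14), and pairs of different numbers among 4, 5 and 6 had r between 0.069 and 0.15, so numbers 4 and 5 did not stand out. With the replicate number as a block, 97 genes were at the cutoffs for the class (52.6% higher), 36 were alike and 4 list members passed, and at an adjusted p under 0.05 there were 2 for the class (Arrdc3 at 0.60 and Slc7a11 at -0.55) and 3 for TCA (with Osbpl3). With the block and only the 9 samples of PBS, TCA and GCA, 108 genes were at the cutoffs for the class, 122 for TCA, 31 alike and 4 in the lists, and 14, 16, 12 and 1 genes passed after adjustment for the class, TCA, GCA and GCA against TCA. With the term for the samples numbered 3, 1 gene passed for TCA.

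Leaving out 1 sample gave between 81 and 115 genes at the cutoffs for the class, between 81 and 127 for TCA (127 without TCA replicate 3), between 92 and 137 for GCA (137 without PBS replicate 6 and 135 without GCA replicate 3), between 79 and 122 for GCA against TCA, between 13 and 37 alike genes and between 1 and 4 list members. The share of higher genes in the class was 60.0% without PBS replicate 6, 55.6% without PBS replicate 5 and 28.6% without TCA replicate 3. Without 1 sample, S1pr2 lay between -0.028 (without TCA replicate 3) and 0.15, and it was -0.023 without PBS replicate 3. Nos2 lay between -0.24 and 0.14 (without PBS replicate 3), and it was 0.033 without GCA replicate 4, or 0.032 with Tβ-MCA left out as well. Map2k6 lay between -0.32 (without GCA replicate 4, with or without Tβ-MCA) and 0.49, and it was -0.035 with the block on 9 samples. Ccr2 lay between -0.15 and 0.10 (without PBS replicate 3). It was 0.085 with the block and 0.042 without GCA replicate 4, or 0.041 with Tβ-MCA left out as well. Of the other values of single genes for the class, 788 kept their direction and side of the threshold, 68 lost the call and 1 gained it (Ly6g without a filter, -0.21). For GCA against TCA 223 kept theirs and 5 lost the call. For most genes under 1 CPM, the interval of the class difference reached beyond a 2-fold change.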
